A study of Mus musculus with 16 samples.

Results

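The comparison described here asked whether radiation changed gene expression differently in the leukocytes of MC38 and Panc02-SIY tumors. MC38 is a mouse colon adenocarcinoma line, and Panc02-SIY is a mouse pancreatic adenocarcinoma line that carries the model antigen SIY. The study treats MC38 as a tumor in which radiation raises an immune response well and Panc02-SIY as one in which it does so poorly. Tumors grew under the skin of C57BL/6J mice aged 6 to 8 weeks, and were left untreated (NT, 0 Gy) or given a single dose of 12 Gy (RT) and harvested 24 h later. Live CD45+ cells, the leukocytes, were sorted from each tumor and sequenced with a droplet-based 3′ single-cell assay. NT and RT differ in the radiation alone by the labels, while the lines differ also in the number of cells implanted. The labels give no batch, and a batch that coincides with the tumor line cannot be told apart from it. All 16 libraries of the series were used, 4 in each of MC38 NT, MC38 RT, Panc02-SIY NT and Panc02-SIY RT.

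The quantity reported is the interaction, which is the RT minus NT change in MC38 minus the RT minus NT change in Panc02-SIY on the log2 scale. A positive interaction means that the change in MC38 was the higher of the pair, and a negative one that the change in Panc02-SIY was. Unique molecular identifiers (UMIs, single captured transcripts) were summed per library over all CD45+ barcodes, and a barcode sequence that occurred in several libraries of one tumor line was kept only in the library where it had most UMIs. This kept 20768 of 28678 barcodes. Sums over a mixture of leukocytes cannot tell fewer cells of a type from less RNA per cell.

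Ionizing radiation breaks DNA, and the transcription factor p53 then induces genes that stop the cell cycle (Cdkn1a), feed back on p53 itself (Mdm2) or lead to cell death. In tumors, radiation is also followed by inflammatory signals and by changes in which leukocytes are present. Macrophages, monocytes and neutrophils carry receptors for microbial and damage signals, while T cells and natural killer (NK) cells carry the receptors for recognizing tumor cells.

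Kept UMIs per library ranged from 3422372 to 8500443 in MC38 NT, from 1385711 to 8500889 in MC38 RT, from 6500446 to 43708746 in Panc02-SIY NT and from 5275195 to 26738456 in Panc02-SIY RT. MC38 RT 1 was the shallowest library, with 147 kept barcodes. Barcode sequences were shared widely among the MC38 libraries, where a pair of libraries had a median of 83.3% of the smaller library's barcodes in common, against 5.54% in Panc02-SIY. The MC38 libraries held 9843 barcodes but 2632 distinct sequences, of which 1393 occurred in 1 library only, so the MC38 libraries may not be independent of each other. The series text gives 4 animals per group and the study's methods give 3, and p-values therefore measure the spread between these libraries. Ptprc, the gene of CD45, had a mean of 488 CPM (UMI counts scaled to a common library total) in MC38 NT, 666 in MC38 RT, 1388 in Panc02-SIY NT and 1631 in Panc02-SIY RT. The 2 untreated populations differed in makeup, with macrophage-like barcodes at 62.0% in MC38 NT and 7.03% in Panc02-SIY NT. A shallow cluster that raised 9 of 12 macrophage markers, cluster 1, was left unnamed and held a further 1.2% and 12.1%, so that counting it gave 63.2% and 19.1%.

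The radiation changes of the 2 lines differed for 43 genes. The p53 targets Mdm2 and Zmat3 rose further in MC38, while Cdkn1a rose by a larger fold in Panc02-SIY. The replication genes Mcm6 and Ccne2 fell further in MC38. Myeloid genes such as Arg1, Cd14, Tlr2 and Cysltr1 rose, or rose by a larger fold, in Panc02-SIY, and the lymphocyte receptor Klrd1 rose in MC38 and fell in Panc02-SIY.

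Genes were called at an edgeR adjusted p below 0.1 and a fold above 1.3 in either direction. Of 12447 genes tested, 19 had a higher change in MC38 (0.153%) and 24 a lower one (0.193%), which is 43 in all (0.345%). Before adjustment, 1472 genes had a p below 0.05. Within MC38, 901 genes rose (7.24%) and 554 fell (4.45%), or 1455 in all (11.7%). Within Panc02-SIY, 957 rose (7.69%) and 870 fell (6.99%), or 1827 in all (14.7%). The MC38 counts depend strongly on the shared barcodes. Without these, 33 of 11472 genes rose and 13 fell in MC38, against 523 and 228 in Panc02-SIY. Genes called as raised in both lines numbered 328, which is 36.4% of those in MC38 and 34.3% of those in Panc02-SIY. Genes called as lowered in both numbered 262, or 47.3% and 30.1%. In opposite directions there were 6, of which Mrc1, Klrd1 and Gm11713 were also called in the interaction. The median interaction over all genes tested was 0.06. With library totals in place of TMM scaling it was shifted by -0.18, and the split became 8 higher and 183 lower genes, with 511 genes raised and 1049 lowered in MC38, and 1243 raised and 528 lowered in Panc02-SIY.

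**Figure D1:**
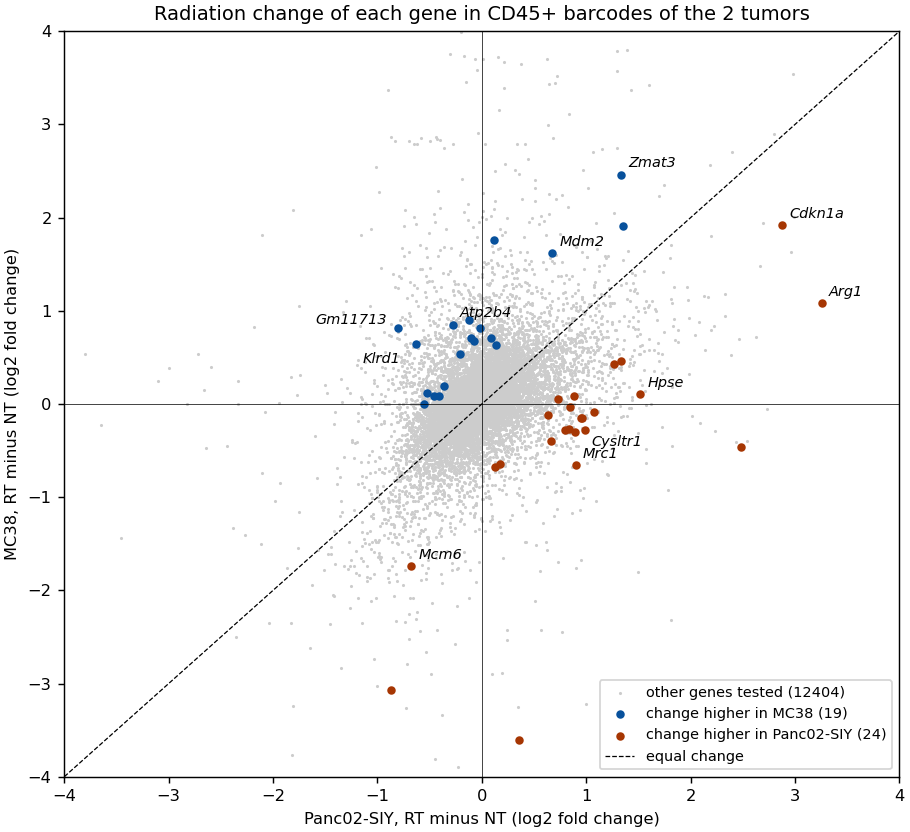
Each point is 1 of the 12447 genes, with the RT minus NT log2 fold change in Panc02-SIY on the horizontal axis and that in MC38 on the vertical axis. The dashed line marks equal change, blue points are the 19 genes with a higher change in MC38 and brown points the 24 with a higher change in Panc02-SIY, and 36 genes, none of them called, lie outside the axes.

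Of the 19 genes with a positive interaction, 9 rose with radiation in MC38 and were not called in Panc02-SIY. They were Atp2b4, Nr4a2, Chd7, Plekha5, Cdc34, Dgka, Sesn3, Ermard and Def6. Zmat3, Exoc4 and Mdm2 rose in both lines, and Zfp593, Sec11a, Psmb3 and Eif3h fell in Panc02-SIY and were not called in MC38. Of the 24 genes with a negative interaction, 14 rose in Panc02-SIY and were not called in MC38, among them Olfm1, Cysltr1, Tlr2, Hpse, Cd33, Dna2, Atp6v0a1 and Cd14. Gpr35, Arg1, Csf2rb and Cdkn1a rose in both, Mcm6 and Ccne2 fell in both, and Hpgd, Herpud1 and Fech fell in MC38 and were not called in Panc02-SIY. In MC38 NT, 22 of the 24 genes with a negative interaction were above their level in Panc02-SIY NT, as were 4 of the 19 with a positive one. The untreated levels are terms of the interaction by which these genes were chosen, and no such share over all genes is given, so these counts describe the chosen genes only. The 43 genes kept their sign under each of up to 31 other ways of processing, but none was called under all of them. They were chosen from these data, and some of these settings cannot change a sign. With every barcode found in several libraries removed, edgeR called 0 genes higher and 0 lower in 11472 tested, with 748 at an unadjusted p below 0.05. That left between 119131 and 1475742 UMIs per MC38 library.

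Mdm2 (ENSMUSG00000020184, chr10:117688875-117710758, minus strand, GRCm38) encodes the ubiquitin ligase that marks p53 for degradation. Libraries 1 to 4 of MC38 NT held 43.0, 60.7, 54.3 and 48.6 CPM, and those of MC38 RT held 192, 167, 142 and 137. In Panc02-SIY the NT libraries held 55.9, 54.5, 51.3 and 67.6 CPM and the RT libraries 88.2, 85.1, 82.4 and 111. Irradiated libraries were above all untreated libraries in both lines, and the 4 MC38 RT libraries were above the 4 Panc02-SIY RT libraries from like untreated levels. Radiation gave a log2 fold change of 1.62 in MC38 and 0.68 in Panc02-SIY, with an interaction of 0.94 (SE 0.19, edgeR adjusted p 0.0776). It was called in 5 of 16 fits with 1 library left out, and was 0.74 without shared barcodes.

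Zmat3 (ENSMUSG00000027663, chr3:32334792-32366014, minus strand) is a p53 target that encodes an RNA-binding zinc finger protein. It held 5.20, 6.50, 6.25 and 6.91 CPM in MC38 NT and 31.9, 40.9, 37.8 and 27.9 CPM in MC38 RT. In Panc02-SIY the untreated libraries held 11.1, 12.2, 15 and 8.35 CPM and RT libraries 32.3, 31.1, 27.9 and 26. The irradiated levels of the lines overlapped, and the untreated levels of MC38 were the lower. The interaction was 1.12 (SE 0.25, edgeR adjusted p 0.0951), from log2 fold changes of 2.46 and 1.34, and was called in 2 of 16 fits with 1 library left out.

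Cdkn1a (ENSMUSG00000023067, chr17:29090976-29100727, plus strand) encodes p21, the inhibitor of cyclin-dependent kinases. Its MC38 NT libraries held 424, 413, 450 and 350 CPM, and the RT libraries 1433, 1718, 1554 and 1504. The Panc02-SIY NT libraries had 67.3, 45.0, 58.8 and 45.6 CPM and RT libraries 397, 309, 375 and 507. No irradiated library overlapped the untreated libraries of its line, and MC38 started 7.56 times as high as Panc02-SIY. The log2 fold change was 1.92 in MC38 and 2.88 in Panc02-SIY, and the interaction was -0.96 (SE 0.21, edgeR adjusted p 0.0951). The order depends on the scale, since the mean rose by 1143 CPM in MC38 and by 343 CPM in Panc02-SIY. The call was kept in 5 of 16 fits with 1 library left out.

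Of 36 p53 targets listed, 35 were tested (Eda2r was not), 24 rose in MC38 and 24 in Panc02-SIY, and none fell in either. For comparison, 7.24% of all genes tested rose and 4.45% fell in MC38, and 7.69% rose and 6.99% fell in Panc02-SIY. The list was chosen with earlier results of these data known, so its rise in both lines is not independent evidence. Its median log2 fold change was 1.15 in MC38 and 0.77 in Panc02-SIY, and its median interaction was 0.24. In the interaction, 2 members were called higher and 1 lower, against 0.153% and 0.193% of all genes tested. Among members that were not called in the interaction, the interaction was 1.75 for Phlda3, an Akt repressor (edgeR adjusted p 0.21), 0.60 for Ccng1, the cyclin G1 gene (adjusted p 0.12), and 1.45 for Trp53inp1, an autophagy and death effector (adjusted p 0.12). It was 0.03 for the death receptor gene Fas, and -0.11 for Bbc3, which encodes the BCL2 family protein PUMA. Trp53 itself had an interaction of 0.01 and fell in both lines, by 0.39 and 0.40 on the log2 scale.

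**Figure D2:**
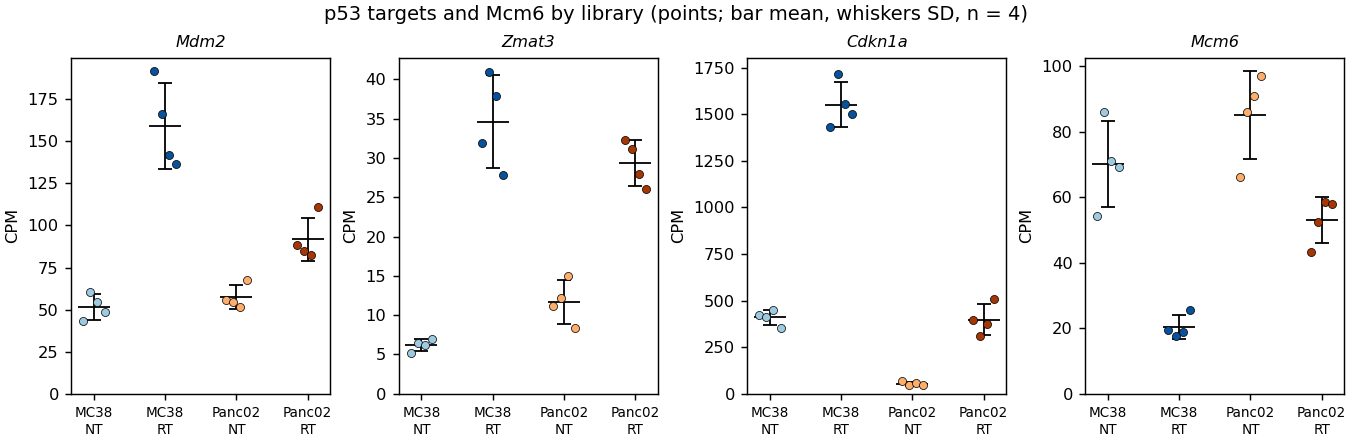
CPM of Mdm2, Zmat3, Cdkn1a and Mcm6 in each of the 16 libraries (points), with the mean (bar) and SD (whiskers) of 4 libraries per group, on axes that start at 0. Mdm2 is highest in MC38 RT (137 to 192 CPM), Zmat3 reaches like levels in both irradiated groups, Cdkn1a is highest in MC38 RT (1433 to 1718 CPM) after a smaller fold, and Mcm6 is lowest in MC38 RT.

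Macrophage-like barcodes held most transcripts of Cdkn1a and Mdm2 in MC38, but not in Panc02-SIY. They gave 89.5% of Cdkn1a UMIs in MC38 NT and 90.6% in MC38 RT, against 22.4% and 30.5% in Panc02-SIY. For Mdm2 they gave 86.6% and 89.2% in MC38 against 15.9% and 20.6% in Panc02-SIY, where T cell-like barcodes gave 34.4% and 28.6%. The part of this difference in makeup in the pooled interactions was not tested.

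Genes of DNA replication fell in both lines and further in MC38 for Mcm6 and Ccne2. Mcm6 (ENSMUSG00000026355, chr1:128331590-128359664, minus strand) encodes a subunit of the replicative helicase. In MC38 the untreated libraries held 54.2, 86.1, 70.9 and 69.1 CPM and RT libraries 19.4, 17.6, 18.9 and 25.6. Levels in Panc02-SIY NT libraries were 66.0, 86.1, 91.0 and 96.8 CPM and RT libraries 43.3, 52.4, 58.5 and 58.0. Groups did not overlap within either line, and all MC38 RT libraries were below all Panc02-SIY RT libraries. Radiation gave a log2 fold change of -1.74 in MC38 and -0.68 in Panc02-SIY, and the interaction was -1.07 (SE 0.22, edgeR adjusted p 0.0848). It was called in 9 of 16 fits with 1 library left out and was -0.38 without shared barcodes.

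Ccne2, the cyclin E2 gene (ENSMUSG00000028212, chr4:11191351-11204779, plus strand), was below the level set for naming and was chosen after its values were seen. The MC38 NT libraries had 13, 20.1, 13 and 10.4 CPM and RT libraries 1.55, 1.64, 1.66 and 1.67. In Panc02-SIY the untreated libraries held 7.09, 10.9, 9.11 and 9.62 CPM and RT libraries 2.63, 4.49, 5.24 and 7.08. The highest RT library of Panc02-SIY nearly met the lowest NT library, while in MC38 the groups lay far apart. Its interaction was -2.20 (SE 0.41, edgeR adjusted p 0.0776) and was -0.78 without shared barcodes.

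All 22 S phase genes listed were tested, and 21 fell in MC38 and 21 in Panc02-SIY, with Slbp, the histone mRNA-binding protein gene, as the exception in both. The median log2 fold change was -1.45 in MC38 and -0.98 in Panc02-SIY, and the median interaction -0.45, with Mcm6 the 1 member called. Other members had interactions of -0.87 for the helicase subunit Mcm5 (edgeR adjusted p 0.27), -0.97 for the uracil glycosylase Ung (0.26) and 0.01 for the sliding clamp Pcna (1.00). Of 24 G2 and mitosis genes, 2 fell in MC38 (Ccnb2 and Bub1) and 0 in Panc02-SIY, none was called in the interaction, and the median interaction was -0.21. Over all genes tested, 4.45% fell in MC38 and 6.99% in Panc02-SIY.

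The promoters of helicase genes carry sites of the E2F family, the factors that switch on S phase genes, and those of Mcm6 and Mcm5 are shown because Mcm6 was the called S phase gene and Mcm5 encodes a partner subunit of the same helicase. Windows from 250 bases before to 50 bases after the start of each gene (RefSeq, GRCm38.p6) were searched on both strands for TTTCCCGC, TTTCGCGC, TTTGCCGC and TTTGGCGC, the unambiguous forms of an E2F site. Matches are in capitals, and overlapping matches run together. The Mcm6 sequence covers chr1:128359725-128359835 on the minus strand, from 130 to 20 bases before the start, and holds 3 matches, 2 of which overlap. The Mcm5 sequence covers chr8:75109336-75109387 on the plus strand, from 173 to 122 bases before the start, and holds 2 overlapping matches.
Mcm6: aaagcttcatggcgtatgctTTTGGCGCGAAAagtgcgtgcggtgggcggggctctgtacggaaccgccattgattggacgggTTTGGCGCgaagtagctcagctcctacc
Mcm5: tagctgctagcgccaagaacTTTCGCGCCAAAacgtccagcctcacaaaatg
A match was present in 8 of the 19 S phase genes with a promoter entry, Cdc6, Clspn, Hells, Mcm3, Mcm5, Mcm6, Mcm7 and Uhrf1, and in 704 of all 27025 genes with one (2.605%), or 2.26% of all 32851 promoters. The match describes the letters only, and both Hells, with an interaction of 0.00, and Mcm6 hold one.

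Several genes with a negative interaction are expressed by macrophages, monocytes and neutrophils. Arg1, Mrc1, Cd14, Tlr2 and Cysltr1 were higher in untreated MC38 than in untreated Panc02-SIY tumors and rose with radiation in Panc02-SIY. In MC38, Arg1 rose by a smaller fold, Mrc1 fell, and the others were not called. Arg1 (ENSMUSG00000019987, chr10:24915221-24927484, minus strand) encodes arginase, which breaks down arginine and marks suppressive macrophages. Levels in MC38 NT libraries were 854, 672, 576 and 524 CPM and RT libraries 1599, 1040, 1840 and 1085, with no overlap. The Panc02-SIY NT libraries had 3.75, 4.03, 1.81 and 1.81 CPM and RT libraries 31.6, 31.0, 14.9 and 26.7, also with no overlap. The log2 fold change was 1.08 in MC38 and 3.26 in Panc02-SIY, and the interaction -2.17 (SE 0.43, edgeR adjusted p 0.0776). On the linear scale the order was the opposite, with a mean rise of 734 CPM in MC38 and 23.2 CPM in Panc02-SIY. Of the 24 genes with a negative interaction, Arg1 and Cdkn1a were the exceptions in this respect, while 22 kept their sign as a difference in CPM.

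Mrc1 (ENSMUSG00000026712, chr2:14229392-14332057, plus strand), the macrophage mannose receptor, moved in opposite directions. In MC38 the untreated libraries held 182, 101, 150 and 107 CPM and RT libraries 86.3, 58.5, 93.2 and 103, so that 1 irradiated library lay within the untreated range. Levels in Panc02-SIY NT libraries were 12.8, 26.3, 30.1 and 21 CPM and RT libraries 42.8, 40.9, 42.7 and 43.4, which did not overlap. It fell by 0.65 on the log2 scale in MC38 (edgeR adjusted p 0.0967) and rose by 0.90 in Panc02-SIY (0.0186). The interaction was -1.55 (SE 0.33, edgeR adjusted p 0.0951), called in 5 of 16 fits with 1 library left out.

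Cd14 (ENSMUSG00000051439), the co-receptor for bacterial lipopolysaccharide, and Tlr2 (ENSMUSG00000027995, chr3:83836272-83841767, minus strand), the receptor for bacterial lipopeptides, shared a pattern. Cd14 was level in MC38, at 787, 842, 959 and 855 CPM in NT libraries and 782, 825, 698 and 927 CPM in RT libraries. In Panc02-SIY it held 62.7, 35.9, 32.6 and 44.0 CPM in NT libraries and 108, 92.8, 85.3 and 82.5 CPM in RT libraries. The MC38 groups overlapped and the Panc02-SIY groups did not, and the interaction was -1.17 (SE 0.23, edgeR adjusted p 0.0776). Tlr2 held 169, 221, 246 and 246 CPM in MC38 NT and 228, 164, 173 and 234 CPM in MC38 RT. In Panc02-SIY it held 18.2, 24.9, 25.3 and 27 CPM in NT and 45.6, 42.0, 50.1 and 48.2 CPM in RT libraries. Again only the Panc02-SIY groups were apart, and the interaction was -1.10 (SE 0.21, edgeR adjusted p 0.0776), called in 12 of 16 fits with 1 library left out.

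Cysltr1 (ENSMUSG00000052821, chrX:106574346-106603679, minus strand), a receptor for cysteinyl leukotrienes, kept its call most widely among these genes. The MC38 NT libraries had 82.1, 94.1, 94.0 and 106 CPM and RT libraries 65.3, 81.4, 79.5 and 81.2. In Panc02-SIY the untreated libraries held 10.8, 8.23, 9.34 and 7.34 CPM and RT libraries 19.6, 18, 17.9 and 14.4. The groups were apart in both lines, below the untreated range in MC38 and above it in Panc02-SIY, although the fall in MC38 was not called. Radiation gave a log2 fold change of -0.28 in MC38 (edgeR adjusted p 0.163) and 0.98 in Panc02-SIY, and the interaction -1.26 (SE 0.18, edgeR adjusted p 0.0128). It was called in all 16 fits with 1 library left out and in 14 of the 15 other alternatives, the exception being the removal of shared barcodes, where it was -1.63.

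A further 5 genes, most of them myeloid or lysosomal, had the same form. Hpse, heparanase, had a mean of 31.9 CPM in MC38 NT and 33.8 in MC38 RT, and of 4.58 and 12.5 CPM in Panc02-SIY, with an interaction of -1.41 (SE 0.31, edgeR adjusted p 0.0951). Cd33, an inhibitory sialic acid receptor, had an interaction of -1.19 (SE 0.24, edgeR adjusted p 0.0776). Atp6v0a1, a subunit of the lysosomal proton pump, had one of -1.10 (SE 0.22), and Olfm1, a secreted glycoprotein, one of -1.08 (SE 0.21). Dna2, a nuclease and helicase of DNA repair and replication, had one of -1.10 (SE 0.24, edgeR adjusted p 0.0951) and rose from a mean of 12.5 to 22.5 CPM in Panc02-SIY, with means of 39.2 and 31.8 CPM in MC38. For each of these genes the rise in Panc02-SIY was called and the change in MC38 was not. Csf2rb, the shared receptor subunit for GM-CSF, and Gpr35, a receptor for tryptophan metabolites, rose in both lines and had interactions of -0.84 and -0.87 (both named after their values were seen).

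The neutrophil-like share went from 7.72% to 13.2% and the monocyte-like share from 2.51% to 7.06% in Panc02-SIY, and in MC38 from 0.554% to 0.706% and from 1.43% to 1.64%. The MC38 shares rest on few barcodes, 8 neutrophil-like in NT and 9 in RT, and 15 and 19 monocyte-like. In Panc02-SIY these were 672 and 1077, and 189 and 633. The difference between lines in the change of the neutrophil-like share did not pass (exact permutation test, adjusted p 0.318), and that of the monocyte-like share was not tested. Of 8 monocyte markers, 3 rose in MC38 and 6 in Panc02-SIY, and of 10 neutrophil markers 0 and 4, with none called in the interaction. Among all genes tested, 7.24% rose in MC38 and 7.69% in Panc02-SIY. Summed monocyte markers ranged from 745 to 1399 CPM in Panc02-SIY NT and from 1567 to 2255 in Panc02-SIY RT, and from 1853 to 2908 and from 3002 to 4088 in MC38. The share of Cysltr1 UMIs from monocyte-like barcodes of Panc02-SIY went from 9.6% in NT to 28.2% in RT, that of Tlr2 from 13.5% to 35%, and that of Cd14 from 18.2% to 35.7%. Macrophage-like barcodes gave 39.1% of Arg1 UMIs in Panc02-SIY NT and 93.6% in Panc02-SIY RT, and 99.4% in both MC38 groups. The part of these shares in the interactions was not tested. Of 12 macrophage markers, 6 rose in Panc02-SIY, 1 fell in MC38, and 1, Mrc1, was called in the interaction, with a median interaction of -0.67. Their summed level ranged from 28370 to 32328 CPM in MC38 NT, from 22078 to 29085 in MC38 RT, from 1464 to 4945 in Panc02-SIY NT and from 3670 to 6291 in Panc02-SIY RT. The complement C1q genes, defining markers of tumor macrophages, had interactions of -0.08 (C1qa), 0.06 (C1qb) and -0.17 (C1qc).

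**Figure D3:**
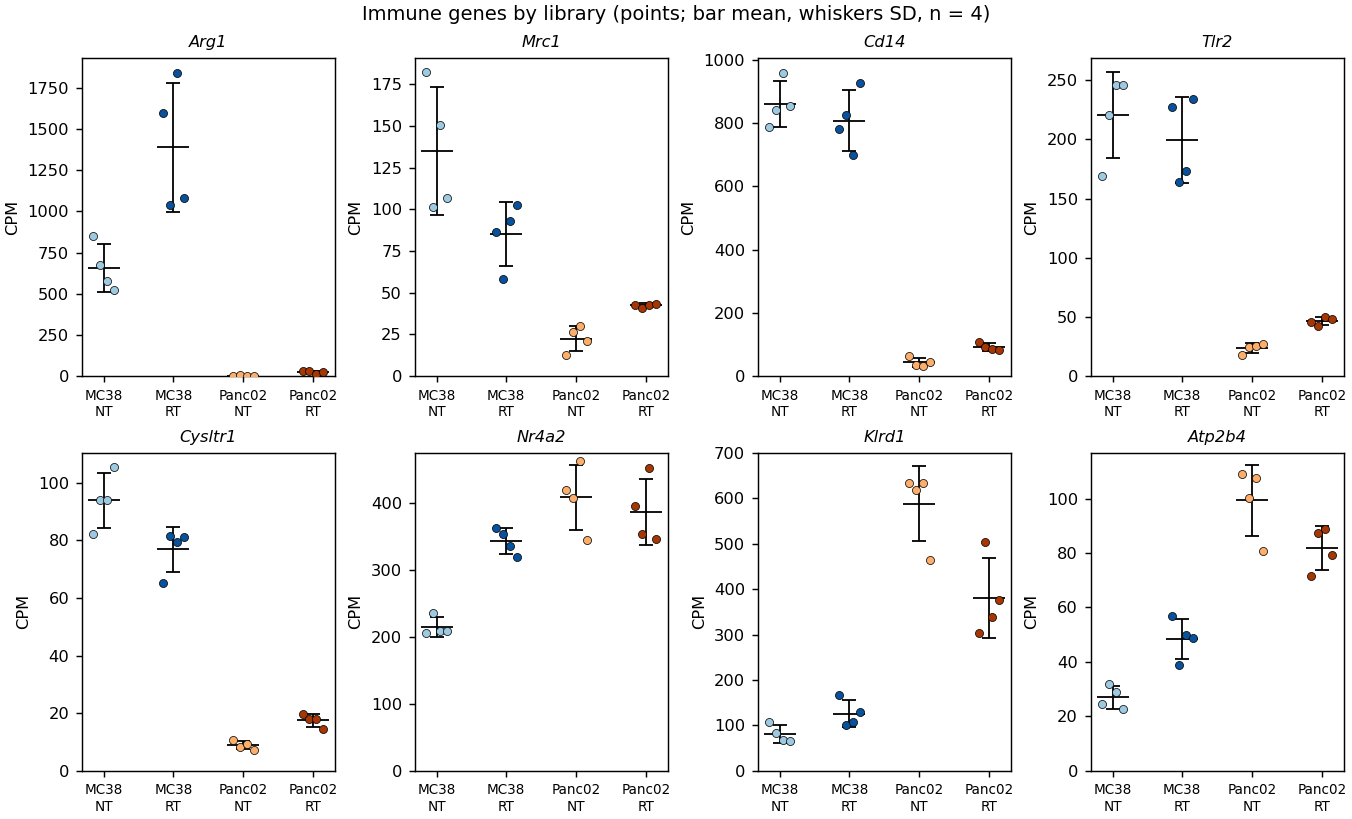
CPM of 8 immune genes in each of the 16 libraries (points), with the mean (bar) and SD (whiskers) of 4 libraries per group, on axes that start at 0. Arg1, Mrc1, Cd14, Tlr2 and Cysltr1 are higher in MC38 and rise from low levels in Panc02-SIY, while Nr4a2, Klrd1 and Atp2b4 rise in MC38 and are level or lower after radiation in Panc02-SIY.

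Several genes with a positive interaction are expressed in lymphocytes and were lower in untreated MC38 than in untreated Panc02-SIY tumors. Klrd1 (ENSMUSG00000030165, chr6:129591782-129598775, plus strand) encodes CD94, the partner of NKG2 receptors on NK cells and activated CD8 T cells. Levels in MC38 NT libraries were 107, 82.3, 67.0 and 65.9 CPM and RT libraries 168, 99.8, 108 and 128. The Panc02-SIY NT libraries had 635, 619, 634 and 465 CPM and RT libraries 303, 504, 339 and 377. In each line the NT and RT groups overlapped at 1 library. The log2 fold change was 0.64 in MC38 (edgeR adjusted p 0.0570) and -0.63 in Panc02-SIY (0.0377), and the interaction was 1.27 (SE 0.28, edgeR adjusted p 0.0951), called in 4 of 16 fits with 1 library left out.

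Nr4a2 (ENSMUSG00000026826, chr2:57106830-57124003, minus strand), an orphan nuclear receptor induced by stimulation of T cells and macrophages, was called as raised in MC38 and not in Panc02-SIY. It held 205, 236, 209 and 208 CPM in MC38 NT and 363, 353, 336 and 320 CPM in MC38 RT. In Panc02-SIY it held 420, 407, 462 and 345 CPM in NT and 395, 353, 453 and 347 CPM in RT libraries. The MC38 groups were apart and the Panc02-SIY groups overlapped, and the interaction was 0.75 (SE 0.15, edgeR adjusted p 0.0776). Nr4a2 was called in 5 of 16 fits with 1 library left out. Macrophage-like barcodes gave 78.1% of its UMIs in MC38 NT and 3.2% in Panc02-SIY NT, where T cell-like barcodes gave 60.8%.

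Atp2b4 (ENSMUSG00000026463, chr1:133699457-133801041, minus strand) encodes a calcium pump of the plasma membrane. In MC38 the untreated libraries held 24.4, 31.9, 28.9 and 22.6 CPM and RT libraries 56.8, 38.9, 49.9 and 48.8, which did not overlap. Levels in Panc02-SIY NT libraries were 109, 100, 107 and 80.6 CPM and RT libraries 71.6, 87.4, 89.0 and 79.1, which did. The interaction was 1.13 (SE 0.19, edgeR adjusted p 0.0488), called in 13 of 16 fits with 1 library left out. Def6, a guanine nucleotide exchange factor of T cell signaling, had an interaction of 0.74 (SE 0.15, edgeR adjusted p 0.0776). Sesn3, a sestrin of the stress response, had one of 0.81 (SE 0.18, edgeR adjusted p 0.0951) and Plekha5, a pleckstrin homology domain protein, one of 0.83 (SE 0.18, edgeR adjusted p 0.0989). Sesn3 and Plekha5 were at means of 9.69 and 6.34 CPM in MC38 NT and of 79.4 and 32.1 CPM in Panc02-SIY NT. Of 16 fits with 1 library left out, 3 called Def6, 3 called Sesn3 and 1 called Plekha5.

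The chromatin remodeler Chd7 rose in MC38 from a mean of 104 to 169 CPM with groups apart, and was at 146 and 155 CPM in Panc02-SIY, an interaction of 0.62 (SE 0.13, edgeR adjusted p 0.0776). Eif3h, a subunit of translation initiation factor eIF3, was at means of 346 and 377 CPM in MC38 and fell from 297 to 207 CPM in Panc02-SIY, an interaction of 0.65 (SE 0.14, edgeR adjusted p 0.0951). With 1 library left out, 6 of 16 fits called Chd7 and 3 called Eif3h. Gm11713 (ENSMUSG00000085245, chr11:107410390-107413549, plus strand), annotated as antisense RNA, had the smallest p. The MC38 NT libraries had 7.80, 8.67, 6.61 and 8.70 CPM and RT libraries 18.7, 13.5, 14 and 11.7. In Panc02-SIY the untreated libraries held 11.3, 10.8, 10.4 and 11.6 CPM and RT libraries 7.24, 6.48, 5.24 and 6.47. It rose in MC38 and fell in Panc02-SIY with no overlap in either, and its interaction was 1.62 (SE 0.22, edgeR adjusted p 0.0128), called in all 16 fits with 1 library left out. Whether the counting used strand is not given in the sources used here, so its reads and those of an overlapping gene may not be told apart.

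No gene of the T cell and NK cell marker lists, which do not hold Klrd1, was called in the interaction. Of 12 T cell markers, 1 rose in MC38 (Cd28) and 1 fell in Panc02-SIY (Trbc2), 8 had an interaction at an unadjusted p below 0.05, and the median interaction was 1.14. The shares over all genes tested were 7.24% raised in MC38 and 6.99% lowered in Panc02-SIY. Summed T cell markers ranged from 275 to 446 CPM in MC38 NT, from 224 to 1082 in MC38 RT, from 4125 to 5458 in Panc02-SIY NT and from 3020 to 4463 in Panc02-SIY RT. Cd8a and Cd8b1, the CD8 chains, had interactions of 1.74 and 1.37 (edgeR adjusted p 0.34 and 0.45), which were -0.20 and -0.53 without shared barcodes. Of 9 T cell inhibitory receptor genes tested, 1 was called in the interaction, and it was Nr4a2, which is a nuclear receptor and not a surface receptor. The others included Tox, a transcription factor of T cell exhaustion (1.14, edgeR adjusted p 0.14), Pdcd1, the gene of PD-1 (0.99), and Lag3 (1.01). Of 10 NK cell markers, 2 rose in MC38 and 0 in Panc02-SIY. The part of the T cell and NK cell content in the positive interactions was not tested.

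Hpgd (ENSMUSG00000031613, chr8:56294585-56321043, plus strand), the dehydrogenase that inactivates prostaglandins, had the largest interaction in size among the 43 called genes and was chosen after its values were seen, since its mean lay below 20 CPM. Levels in MC38 NT libraries were 6.62, 9.29, 11.6 and 8.06 CPM and RT libraries 0, 0.409, 1.42 and 0.557. The 0 UMIs of the first of these allow up to 2.16 CPM before TMM scaling. The Panc02-SIY NT libraries had 6.81, 7.01, 16.7 and 14.4 CPM and RT libraries 20.6, 13.6, 11.4 and 13.1. It nearly vanished in irradiated MC38 and overlapped between groups in Panc02-SIY, and the interaction was -3.95 (SE 0.60, edgeR adjusted p 0.0269), called in all 16 fits with 1 library left out.

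No gene of the interferon-stimulated, MHC class I or MHC class II lists was called in the interaction. Of 51 interferon-stimulated genes tested, 35 rose in MC38 and 33 in Panc02-SIY, with medians of 0.64 and 0.68 and a median interaction of -0.03. Isg15, a ubiquitin-like modifier, had log2 fold changes of 1.01 and 0.91, and Mx1, an antiviral GTPase, of 1.38 and 1.47. Of 18 MHC class I presentation genes, 5 rose in MC38 and 0 in Panc02-SIY, and the median interaction was 0.32. The closest of them to a call were the MHC class I gene H2-T22 (0.66, edgeR adjusted p 0.10) and Nlrc5, the transactivator of class I genes (0.78, adjusted p 0.15). Of 11 MHC class II genes, 2 rose in each line, and the median interaction was -0.03. For all genes tested, the shares that rose were 7.24% in MC38 and 7.69% in Panc02-SIY.

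Over all genes tested, 7.24% rose in MC38 and 7.69% in Panc02-SIY. Of 21 chemokine genes tested, 1 rose in MC38 (Ccl6) and 9 in Panc02-SIY, none was called in the interaction, and the median interaction was -0.66. Among them, the monocyte attractant Ccl2 had log2 fold changes of 0.85 in MC38, which was not called, and 1.15 in Panc02-SIY, and Cxcl10, the T cell attractant, of 0.41, not called, and 1.41. Of 21 inflammatory cytokine and receptor genes, 6 rose in MC38 and 10 in Panc02-SIY, with a median interaction of -0.38, and Il1b, the interleukin-1 beta gene, rose by 0.65 and 1.10. A call in one line and not in the other is not a difference between lines, and the tests of the difference did not pass for any of these genes.

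Other lists were similar. Over all genes tested, 7.24% rose and 4.45% fell in MC38, and 7.69% rose and 6.99% fell in Panc02-SIY. Lists below with 1 raised member in MC38 were thus near the share over all genes. Of 23 dendritic cell maturation genes, 6 rose in MC38 and 9 in Panc02-SIY, with a median interaction of -0.05. Of 15 complement and phagocytic receptor genes tested, 2 rose and 1 fell in MC38 and 8 rose in Panc02-SIY, with Mrc1 the 1 called in the interaction and a median of -0.42. Of 19 lipid-associated macrophage genes, 1 rose in MC38 and 6 in Panc02-SIY, and the median interaction was -0.29. Of 22 glycolysis and hypoxia genes, 5 rose in MC38, while 7 rose and 2 fell in Panc02-SIY, and the 1 called in the interaction was Arg1, an enzyme of the urea cycle. Of 20 immediate early and heat shock genes, 6 rose in MC38, while 9 rose and 1 fell in Panc02-SIY (median interaction 0.03), and of 17 oxidative stress genes 1 rose in MC38 and 3 rose and 1 fell in Panc02-SIY (-0.05). Of 13 cytotoxic granule genes, 3 rose in MC38, among them the interferon gamma gene Ifng, and 0 in Panc02-SIY (0.27), and of 10 naive and memory T cell genes 3 rose in MC38 and 1 in Panc02-SIY (0.46). Of 13 collagen and matrix genes, 1 rose in MC38, while 1 rose and 3 fell in Panc02-SIY (0.20). The 3 that fell, Col1a1, Col1a2 and Col3a1, are fibroblast collagens. A cluster with fibroblast markers held 1.24% of barcodes in Panc02-SIY NT and 0.630% in Panc02-SIY RT. Its barcodes were deep, with median UMIs of 42092 in NT and 37560 in RT, against library medians of at most 6594.5 and 6004. Its share of the summed UMIs was therefore above its share of barcodes, and its part in the interactions of single genes was not tested. In MC38 this cluster held 0 of 2632 barcodes, which allows a share of up to 0.114%. That limit does not cover cluster 15, a shallow unnamed cluster that raised 3 fibroblast and 4 endothelial markers. Cluster 15 held 126 barcodes in MC38 NT, 72 in MC38 RT, 127 in Panc02-SIY NT and 83 in Panc02-SIY RT.

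**Figure D4:**
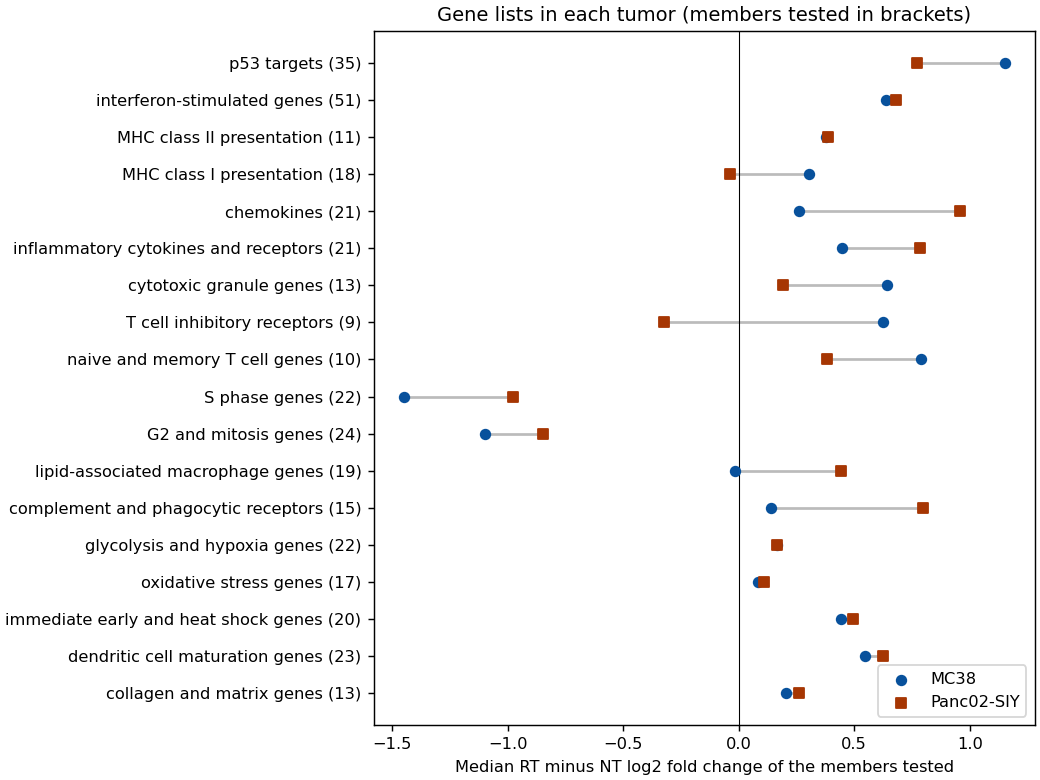
Median RT minus NT log2 fold change of the tested members of 18 gene lists in MC38 (blue circles) and Panc02-SIY (brown squares), with the number of members tested in parentheses and a gray line joining each pair. The p53 targets lie furthest to the right in MC38 (1.15, against 0.77 in Panc02-SIY), S phase genes lie to the left in both (-1.45 and -0.98), and interferon-stimulated genes lie together (0.64 and 0.68).

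The interaction was also tested within classes of barcodes. Clustering gave 29 clusters, which were named after markers, and macrophage-like, all mononuclear phagocyte-like and NK cell-like barcodes reached the minimum of 10 in every library. T cell-like barcodes, with 9 in 1 library, were added after this was seen. They leave out cluster 3, which raised 12 T cell markers and was kept as a class of its own. In macrophage-like barcodes, 7 of 10296 genes were called (0.0680%) and 721 had an unadjusted p below 0.05. This class had 1636 barcodes in MC38 and 1620 in Panc02-SIY, with 24 to 624 per library and between 109377 and 10701311 UMIs. The macrophages of the lines lay mostly in different clusters (clusters 6, 10 and 22 for MC38, and clusters 7, 21 and 23 for Panc02-SIY). In Panc02-SIY NT, clusters 6, 10 and 22 held 10, 30 and 9 of 883 macrophage-like barcodes. In Panc02-SIY RT they held 49, 86 and 19 of 737. The part of this shift in the interactions within the class was not tested. NK cell-like barcodes also differed in cluster. Cluster 17, shallow at 0.237 of the library median UMIs, held 81 of 112 in MC38 NT and 127 of 172 in MC38 RT. In Panc02-SIY it held 31 of 775 in NT and 56 of 1327 in RT, and the rest lay in clusters 2 and 16.

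Cdkn1a was the clearest of the genes called over all barcodes within macrophage-like barcodes. Libraries of MC38 NT held 414, 408, 423 and 331 CPM and those of MC38 RT 1427, 1570, 1489 and 1378. The Panc02-SIY NT libraries had 128, 43.5, 41.5 and 70.5 CPM and those of Panc02-SIY RT 729, 696, 740 and 845. Every MC38 NT library was above every Panc02-SIY NT library, and irradiated and untreated libraries did not overlap in either line. The mean went from 394 to 1466 CPM in MC38 and from 70.9 to 753 CPM in Panc02-SIY. The rise in CPM was thus larger in MC38, and the order depends on the scale here too. Radiation gave a log2 fold change of 1.98 in MC38 and 3.74 in Panc02-SIY, and the interaction was -1.76 (SE 0.24, edgeR adjusted p 0.00088), called in all 16 fits with 1 library left out. Without shared barcodes it was -2.38, with an edgeR adjusted p of 0.113. In NK cell-like barcodes it was -0.40 and in T cell-like barcodes -1.68, neither of them called.

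Of the other 6 calls in macrophage-like barcodes, Hpgd was also called over all barcodes and had an interaction of -3.46 (SE 0.59, edgeR adjusted p 0.0250). Cp, ceruloplasmin, had one of -1.78 (SE 0.29, edgeR adjusted p 0.00731), Bhlhe41, a transcription factor of the circadian clock, one of -1.68 (SE 0.30, adjusted p 0.0250), and Ankrd1, an ankyrin repeat protein, one of -3.11 (SE 0.64, adjusted p 0.0897). Each of Cp, Bhlhe41 and Ankrd1 fell in MC38 and rose in Panc02-SIY. For Ankrd1 the rise rests on 8 UMIs in Panc02-SIY NT and 23 in Panc02-SIY RT, with 0 in the first library of each, so that these groups overlapped. Cp was at 66.8 CPM in Panc02-SIY NT and 103 in Panc02-SIY RT in pooled macrophage-like barcodes, against 2.35 and 1.55 in T cell-like barcodes, and at 1519 and 2339 in the cluster with fibroblast markers. In MC38 it was at 11.4 and 4.49 CPM in macrophage-like barcodes. The Panc02-SIY cluster with fibroblast markers also held Bhlhe41 at 145 CPM in NT and 181 in RT, and Ankrd1 at 111 and 132. Pooled macrophage-like barcodes of Panc02-SIY held Bhlhe41 at 14.6 and 33.6 CPM and Ankrd1 at 0.561 and 2.25. The part of free or doublet RNA from that cluster in these values was not tested.

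Ms4a4b, a membrane protein of T cells, had an interaction of 1.67 (SE 0.22, edgeR adjusted p 0.00088) and Gm17056 one of 2.03 (SE 0.41, adjusted p 0.0793). Ms4a4b had a UMI in 26.8% of macrophage-like barcodes in MC38 NT and 34.9% in MC38 RT, and in 23.9% and 16.8% in Panc02-SIY, where T cell-like barcodes had one in 94.2% and 91.0% and neutrophil-like barcodes, which should lack it, in 5.95% and 3.62%. Median depths in Panc02-SIY NT were 15354 UMIs for macrophage-like and 2562 for neutrophil-like barcodes. The T cell-like share of all barcodes went in the same directions, from 5.99% to 7.54% in MC38 and from 33.1% to 25.5% in Panc02-SIY, and the part of free or doublet T cell RNA in the Ms4a4b value was not tested. Ankrd1 was called in 5 of 16 fits with 1 library left out, Gm17056 in 8, Bhlhe41 and Hpgd in 14, and Cp and Ms4a4b in all 16. With cluster 1 counted as macrophage-like, 1 gene was higher and 5 were lower, and Bhlhe41 and Gm17056 lost their calls (edgeR adjusted p 0.147 and 0.166). With shared barcodes removed, edgeR called 0 of 6672 genes in macrophage-like barcodes, with 244 at an unadjusted p below 0.05.

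The genes called over all barcodes mostly had the same sign within macrophage-like barcodes, with smaller medians. These barcodes are part of the sums over all barcodes and held most UMIs of each MC38 library, so the agreement is not independent. Of the 19 with a positive interaction, 18 kept their sign, with a median of 0.44 against 0.75 over all barcodes. Of the 24 with a negative one, 23 kept their sign, with a median of -0.86 against -1.09. Mdm2 had an interaction of 0.43 (SE 0.26), Zmat3 one of 0.81, Mrc1 one of -1.61, Mcm6 one of -1.33 and Arg1 one of -3.92 (SE 1.02), none of them called. Tlr2 was at -0.54, Cysltr1 at -0.59 and Nr4a2 at -0.20, also not called. Tlr2 and Cysltr1 were therefore closer to 0 than over all barcodes, while Nr4a2 had the opposite sign to its interaction of 0.75 over all barcodes. These differences were not tested. In NK cell-like barcodes edgeR called 0 of 7525 genes, with 434 at an unadjusted p below 0.05, in T cell-like barcodes 0 of 7781, with 439, and in all mononuclear phagocyte-like barcodes 0 of 10518, with 668. Of the genes called over all barcodes, 12 of 19 positive and 6 of 9 negative ones tested kept their sign in NK cell-like barcodes. In T cell-like barcodes 13 of 18 and 7 of 10 did.

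**Figure D5:**
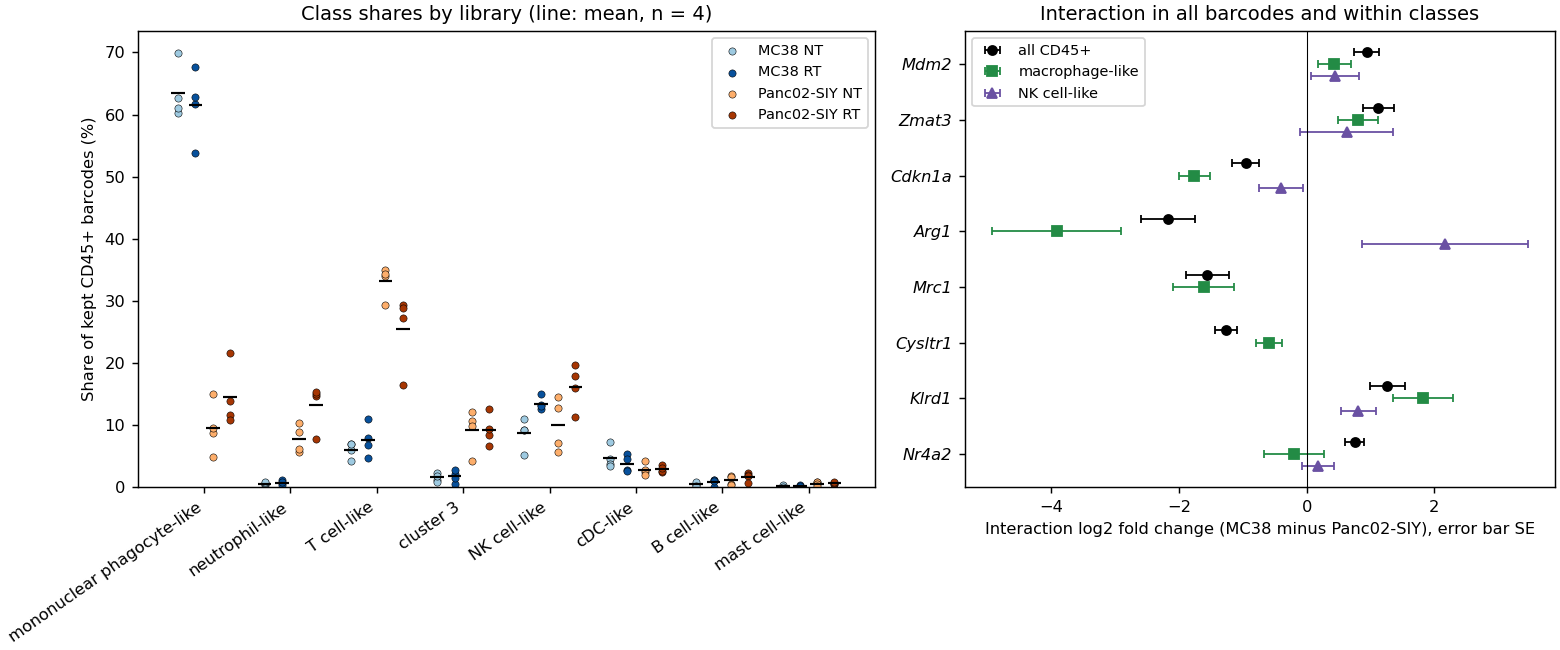
Left, the share of kept CD45+ barcodes in each of 8 classes (points are libraries, lines are means of 4). Right, the interaction log2 fold change of 8 genes, with SE, over all barcodes and within macrophage-like and NK cell-like barcodes where tested. The T cell-like share is highest in Panc02-SIY NT (33.1%), and the interaction of Cdkn1a is further below 0 in macrophage-like barcodes (-1.76) than over all barcodes (-0.96).

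None of the 8 class shares tested passed as changing differently between the lines. The permutation test used is exact only where radiation changes a share in neither line. A change that both lines share can raise its p-value. The T cell-like share was 6.87%, 5.96%, 6.96% and 4.18% in MC38 NT and 10.9%, 4.69%, 7.84% and 6.73% in MC38 RT. It was 29.4%, 33.9%, 34.9% and 34.2% in Panc02-SIY NT and 16.4%, 29.4%, 27.3% and 28.9% in Panc02-SIY RT. The MC38 groups overlapped, and the Panc02-SIY RT libraries were all below the NT libraries. The interaction was 9.18 percentage points, and the exact permutation test over 4900 regroupings within lines, two-sided, gave p 0.0147, or 0.118 adjusted over 8 classes. Among the alternatives it passed only without MC38 RT 2, at 10.1 points (adjusted p 0.0229, exact permutation). Every other alternative gave an adjusted p of at least 0.104 by the same test. The neutrophil-like share had an interaction of -5.30 points (exact p 0.0796, adjusted p 0.318) and the mononuclear phagocyte-like share one of -6.88 points (exact p 0.174, adjusted p 0.465). With cluster 1 counted as macrophage-like, the mononuclear phagocyte-like interaction was -2.16 points (exact permutation p 0.729). NK cell-like barcodes went from 8.64% to 13.4% in MC38 and from 9.98% to 16.2% in Panc02-SIY, an interaction of -1.44 points (exact p 0.742). Most of these barcodes lay in the shallow cluster 17 in MC38, and in clusters 2 and 16 in Panc02-SIY. Without shared barcodes the T cell-like interaction was 8.05 points (exact p 0.0412, adjusted p 0.325).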

How the data were processed

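The deposited values are raw UMI counts per gene and barcode that the authors made with Cell Ranger 3.1.0 (bcl2fastq 2.20.0, mm10, per the labels), with 1 matrix of 31053 features for each of the 16 libraries. Alignment, UMI counting and barcode calling are theirs, and whether strand was used is not given in the sources used here.

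Counts were summed per library over the kept barcodes. The sums of all 4 groups were fitted together with edgeR 4.0.16 in R 4.3.3 (TMM scaling, filterByExpr with a minimum count of 10 and total of 15, robust quasi-likelihood F tests with a coefficient for each group, 12 residual degrees of freedom), and genes were called under the limits of the study's methods, an adjusted p (Benjamini-Hochberg) under 0.1 with a fold over 1.3. CPM values of single genes over all barcodes are after TMM scaling. Those within classes of barcodes and the summed marker levels are scaled to UMI totals alone. Before use, the test was run on counts simulated at the same depths, as independent libraries drawn from a pooled profile. Such counts hold neither shared barcodes nor a difference in makeup between the lines, so they cannot show how the test handles either. Barcodes were clustered with scanpy 1.11.5 (2000 variable genes, 30 principal components, 20 neighbors, Leiden resolution 1), and clusters were named by hand from 3 or more raised markers of a class. Left unnamed were cluster 1, whose median UMIs were 0.184 of the library median with no macrophage marker among its 10 leading genes, clusters 24 and 28 (145 and 16 barcodes), led by genes of other granulocytes, and clusters 4, 15 and 27. Cluster 22 was shallower, at 0.163, but had 3 macrophage markers among its leading genes and was named macrophage-like. It held 73 barcodes in MC38 NT and 9 in Panc02-SIY NT, while cluster 1 held 15 and 1325. Cluster 21, at 0.426, raised 3 macrophage markers with none among its leading genes and was also named macrophage-like. Neither depth nor leading genes alone thus sets cluster 1 apart from the named clusters. Cluster 15, with median UMIs at 0.13 of the library median, raised 3 fibroblast and 4 endothelial markers. Cluster 3 raised 12 T cell markers and 2 CD8 T cell markers, but was kept by number and is not part of the T cell-like class. It held 9.20% of barcodes in Panc02-SIY NT and 9.23% in Panc02-SIY RT, and 1.53% and 1.71% in MC38. Class shares were compared by exact permutation of NT and RT within each line. Doublets were treated only as an alternative, since Scrublet marked 31 barcodes (0.108%), and the 5% with the highest scores were then removed. Depth ranged from 1385711 to 43708746 UMIs per library, and limits for a count of 0 use 3 counts and cover counting error only.

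Coordinates come from GENCODE for GRCm38, matched by Ensembl identifier, and promoters from RefSeq. Named genes were the 10 largest interactions per direction among called genes with a mean of at least 20 CPM, up to 4 called and the 2 highest members of each list, and genes called in opposite directions. The members, the 16 marker lists and the 18 gene lists were chosen with earlier results of these data known. Of the alternative settings, 22 were listed first and 9 were added after the data were seen, namely a block for each replicate number of each line, genes of at least 20 CPM only, removal of 3 clusters from the sums and from the shares, the test in T cell-like barcodes, removal of shared barcodes from class shares and from macrophage-like barcodes, and cluster 1 counted as macrophage-like in both.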

Additional observations from a re-analysis of the deposited data

Results flagged for a closer look

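Among 124 groups of 4 libraries examined for a library far from the other 3, 11 had one, and chance gives about 1 in 20. For genes these were Klrd1 in Panc02-SIY NT 4 (465 CPM), Plekha5 in MC38 RT 1 (14 CPM), Sesn3 in Panc02-SIY NT 1 (90.8 CPM), Nr4a2 in MC38 NT 2 (236.5 CPM), Def6 in MC38 RT 1 (34.2 CPM), Cysltr1 in MC38 RT 1 (65.3 CPM) and Atp6v0a1 in MC38 RT 2 (32.3 CPM). For class shares they were neutrophil-like barcodes in Panc02-SIY RT 4 (7.77%), T cell-like barcodes in Panc02-SIY RT 1 (16.4%), B cell-like barcodes in MC38 RT 1 (0 of 147, which allows a share of up to 2.04%) and mast cell-like barcodes in MC38 NT 3 (0.290%). MC38 RT 1, the shallowest library, accounts for 4 of the 11.

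The radiation change differed between the tumor lines by the edgeR interaction test for the following named genes over all CD45+ barcodes. With a higher change in MC38 these were Gm11713 (1.62), Klrd1 (1.27), Atp2b4 (1.13), Zmat3 (1.12), Mdm2 (0.94), Plekha5 (0.83), Sesn3 (0.81), Nr4a2 (0.75), Def6 (0.74), Eif3h (0.65) and Chd7 (0.62), as interaction log2 fold changes. With a lower change in MC38 they were Arg1 (-2.17), Mrc1 (-1.55), Hpse (-1.41), Cysltr1 (-1.26), Cd33 (-1.19), Cd14 (-1.17), Atp6v0a1 (-1.10), Dna2 (-1.10), Tlr2 (-1.10), Olfm1 (-1.08), Mcm6 (-1.07) and Cdkn1a (-0.96). In macrophage-like barcodes they were Gm17056 (2.03), Ms4a4b (1.67), Cdkn1a (-1.76), Bhlhe41 (-1.68), Cp (-1.78), Ankrd1 (-3.11) and Hpgd (-3.46). Of these, Cp had an interaction of -1.03 over all barcodes (SE 0.91, edgeR adjusted p 0.73). Libraries with 14 CPM of Plekha5 or 65.3 CPM of Cysltr1 in MC38 RT entered these values, and without MC38 RT 1 Cysltr1 was still called. Plekha5 was called in 1 of 16 fits with 1 library left out.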

How the results depend on the processing

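Counts of called genes moved with the processing, while signs did not. Each of the 43 genes kept its sign under every alternative run, and a median of 16 of up to 31 alternatives called a gene. Higher and lower genes in the interaction were 194 and 140 with all barcodes kept in every library, 0 and 0 with shared barcodes removed (748 at an unadjusted p below 0.05), 129 and 132 by DESeq2, 8 and 183 with library totals alone, 2 and 2 at an adjusted p below 0.05, 10 and 12 with libraries thinned to the lowest total, 84 and 62 without clusters 15, 19 and 27, which raise stromal or endothelial markers, and 72 and 51 among genes of at least 20 CPM. Higher genes were 8 with RLE size factors and 4 with no filter on low counts. The DESeq2 calls included all 43 genes, and the calls without clusters 15, 19 and 27 included 41 of them.

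Leaving out 1 library gave between 1 and 48 higher and between 2 and 106 lower genes. The counts were 11 and 15 without MC38 NT 1, 2 and 5 without MC38 NT 2, 2 and 2 without MC38 NT 3, 1 and 2 without MC38 NT 4, 29 and 18 without MC38 RT 1, 22 and 18 without MC38 RT 2, 1 and 2 without MC38 RT 3, and 7 and 12 without MC38 RT 4. They were 2 and 33, 2 and 17, 6 and 54, and 48 and 106 without Panc02-SIY NT 1 to 4, and 1 and 10, 22 and 81, 3 and 10, and 7 and 60 without Panc02-SIY RT 1 to 4. At least 8 of these 16 fits called 18 of the 43 genes.

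Replicate numbers occur in every group, but same-numbered NT and RT libraries deviated together in some pairs only (correlations 0.24, -0.05, 0.08 and -0.01 for MC38, and 0.58, -0.21, 0.30 and 0.81 for Panc02-SIY), so the numbers were not taken as pairs. With a replicate block the interaction had 81 higher and 60 lower genes, and with a line by replicate block 368 and 239, both with all 43. In macrophage-like barcodes the replicate block gave 5 and 14, and in T cell-like barcodes 1 higher gene.

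Within the lines, library totals gave 511 raised and 1049 lowered genes in MC38 and 528 lowered in Panc02-SIY. With shared barcodes removed, 33 genes rose and 13 fell in MC38, and 523 rose and 228 fell in Panc02-SIY. With all barcodes kept in every library, 346 rose and 157 fell in MC38, and 1081 rose and 997 fell in Panc02-SIY. Leaving out 1 library gave 355 to 807 lowered genes in MC38, while Panc02-SIY had 385 to 913. In macrophage-like barcodes, lower genes were 10 with library totals, 0 higher and 0 lower genes were called without shared barcodes, and 1 higher gene was called with cluster 1 counted as macrophage-like. Leaving out 1 library there gave 1 to 6 higher and 3 to 21 lower genes, with 20 without Panc02-SIY RT 1 and 21 without Panc02-SIY RT 4. It gave 0 to 5 higher and 0 to 2 lower genes in mononuclear phagocyte-like, 0 to 1 higher in NK cell-like and 0 to 1 higher in T cell-like barcodes. The T cell-like share had an interaction of 6.14 to 10.5 points with 1 library left out.

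Of the comparisons of single named or called genes with the alternatives, 2575 stayed on the same side of the threshold, 583 lost a call and 16 gained one. The 2575 include changes of sign in genes that were not called. For example, H2-Ab1 kept its sign in 14 of 31 alternatives. The cause of these differences was not tested. The median SE of an interaction was 0.169 for genes of at least 20 CPM, and it holds both counting error and the spread between libraries.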
